A study of Mus musculus with 30 samples.

Results

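Microglia and astrocytes sorted from the spinal cords of EAE-vehicle mice were compared gene by gene, to describe which inflammatory genes each cell type held at disease and how far each preparation held transcripts of other cells. The 6 microglia and 6 astrocyte libraries of this group were taken, out of 30 libraries in the series, and the genes with a mean of at least 1 log2 FPKM over the 12 libraries were described. FPKM is a fragment count divided by transcript length and library size, so levels can be compared between genes. This rule kept 11338 of 30952 genes, of which 10587 are protein-coding. The last gene kept had a mean of 1.001, and the first gene left out had a mean of 0.9999.

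EAE (experimental autoimmune encephalomyelitis) is an immune attack on CNS myelin. It was induced in female C57BL/6J mice of 8 to 10 weeks of age with MOG35-55, a myelin peptide, in adjuvant. The EAE-vehicle mice received 20% Captisol, the solvent, 2 times a day for 3 days from a clinical score of around 1. Naive mice, which were not immunized (4 libraries per cell type), and mice with EAE that received the RIPK1 kinase inhibitor RIPK1inh-1 at 50 mg/kg in the same way (5 libraries per cell type) were used here for 2 further comparisons. The labels name no engineered allele in any group. Microglia were sorted as CD11b+ CD45int CX3CR1+ cells and astrocytes as GLAST+ CD11b- CD45- CD140a- cells, after myelin removal. The library method captured polyadenylated RNA and amplified it by PCR.

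Microglia are the resident macrophages of the CNS. They sense damage and microbes through Toll-like and Fc receptors, tag synapses and debris with complement, and can present antigen on MHC class II. Astrocytes take up glutamate, carry water and ions and, when reactive, raise intermediate filaments and secrete cytokines. Both cell types answer to interferons and tumor necrosis factor (TNF), and RIPK1 is a kinase that links TNF receptors to inflammatory transcription and to cell death.

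The 12 libraries differed in how many genes gave signal. Between 10729 and 20398 genes did so in a microglia library. Among astrocytes, library 1 had the fewest of all (6728) and library 2 the most (22109). Since the values were quantile-normalized, a gene without signal can carry a value above 0, up to 2.74 in astrocyte library 1 and up to 0.87 in the other libraries. Depth is unknown from values of this kind. Replicates varied more in astrocytes than in microglia, with a median SD of 1.35 against 0.56 over the 11338 genes. The study gives its group sizes in mice and describes both cell types as sorted from the same animals. Which microglia and astrocyte libraries share a mouse is not stated, so the cell types were compared as separate samples, and p-values measure the spread between these samples. In bulk samples, fewer cells of a type and less RNA per cell cannot be told apart.

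The cell types differed in 3458 of the 11338 genes. Genes were called at a fold over 1.5 and a limma p-value under 0.05 after Benjamini-Hochberg adjustment over all 30139 genes tested, and every adjusted p given here is of this kind. Microglia were higher for 2029 of these genes (17.9% of them, against 7.07% of all genes tested), and astrocytes were higher for 1429 (12.6%, against 4.78%). Every microglia library lay above every astrocyte library for 1388 genes (12.2%), and the reverse held for 969 (8.55%). The remaining 7880 genes were not called. The median difference, microglia minus astrocytes, was -0.07 over all genes tested and 0.43 over the 11338.

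**Figure D1:**
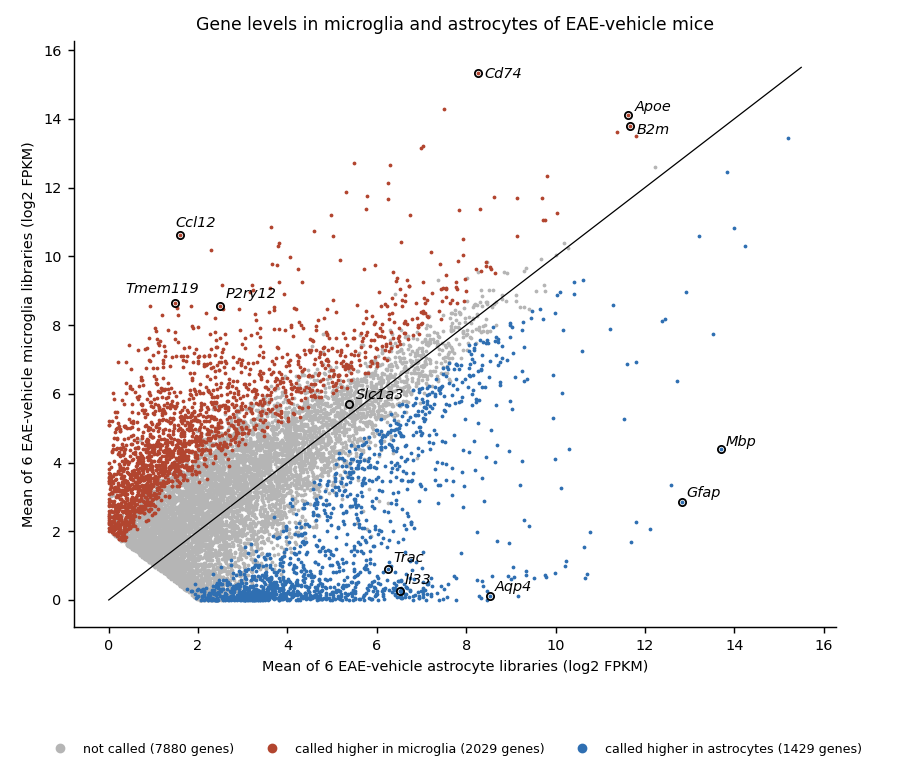
Mean log2 FPKM of the 6 astrocyte libraries (horizontal axis) against that of the 6 microglia libraries (vertical axis) for 11338 genes, with the line of equal levels and named genes circled. Red points are the 2029 genes called higher in microglia, blue points the 1429 called higher in astrocytes and grey points the 7880 not called; Cd74 sits at the top of the scale in microglia and Slc1a3 lies next to the line.

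Among the largest differences towards microglia was Ccl12, a chemokine that attracts monocytes. It lay at 10.10 to 11.32 (median 10.60) in microglia and at 0.00 to 3.72 (median 1.04) in astrocytes, a difference of 9.02 ± 0.65 (SE; n = 6 per cell type, as for every difference below; adjusted p = 5.78e-07). Pld4, a lysosomal exonuclease, followed with 7.89 ± 0.73 (adjusted p = 6.98e-06). Fcgr4, an activating IgG receptor, differed by 7.64 ± 0.55 (adjusted p = 5.26e-07), and the lysosomal protease gene Ctsc by 7.24 ± 0.72 (adjusted p = 1.25e-05). The groups did not overlap for any of these 4 genes. Cd74, the MHC class II invariant chain, was at 15.34 in all 6 microglia libraries, the highest value of the table. Its difference of 7.07 ± 0.35 (adjusted p = 2.17e-08) is therefore measured at the upper end of the scale.

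Towards astrocytes the largest differences were in Aldoc, the brain form of aldolase, in the metallothionein Mt3, in Ndrg2, in the intermediate filament Gfap and in the lipocalin Apod. Gfap lay at 12.32 to 13.51 (median 12.78) in astrocytes and at 1.57 to 3.75 (median 2.85) in microglia, a difference of -9.97 ± 0.34 (adjusted p = 1.42e-09). The other 4 differed by -9.95 (Apod) to -10.05 (Aldoc), and their groups did not overlap either. Gfap, Ctsc and Fcgr4 are marked in the deposited annotation as overlapping another gene, as are 6366 of the 11338 genes, so reads of the partner cannot be told apart. The same mark is carried by Alox5ap, Ank, Aqp4, B2m, C3, Casp8, Ccl19, Ccl27a, Cd74, Col1a2, Csf1r, Cx3cr1, Cxcl10, Cxcl16, Cxcr6, Dhx58, Fcgr2b, Fgf1, Fkbp5, Gbp10, Gbp8, Ggta1, Grn, H2-Oa, Icam1, Ifng, Il18, Il1a, Il1b. It is also carried by Il27, Il34, Irf5, Irf8, Itgam, Mbp, Mlkl, Ms4a4c, Ncf1, Nefl, P2ry12, Pdgfra, Pdia3, Pla2g7, Ptgs1, Ptprc, Pycard, Ripk1, Slc1a3, Spp1, Stat3, Tgfb2, Tgm1, Tgtp1, Timp1, Tlr3, Traf5 and Vcam1.

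Of the genes that encode the sort antigens, 3 of 5 separated the preparations. Itgam (CD11b) was at 6.80 to 7.84 in microglia and at 0.00 to 4.19 in astrocytes (difference 4.74, adjusted p = 0.000338). Cx3cr1 was at 5.98 to 7.27 and 0.93 to 3.98 (difference 4.12, adjusted p = 6.24e-05). Ptprc (CD45), by which astrocytes were selected negatively, was at 6.52 to 7.23 in microglia and still at 2.42 to 5.65 in astrocytes (difference 2.06, adjusted p = 0.00995). Slc1a3, which encodes GLAST, the antigen of the astrocyte gate, did not separate them, with 5.28 to 6.32 in microglia and 4.11 to 6.01 in astrocytes (difference 0.32, adjusted p = 0.563). Pdgfra (CD140a) was low in both, at 0.03 to 0.85 and 0.04 to 3.18.

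All 11 microglia markers were higher in microglia, with groups that did not overlap. Their differences ran from 2.92 (Fcrls) to 7.22, with a median of 5.47. Tmem119 was at 8.26 to 9.02 against 0.57 to 3.31, and the purinergic receptor P2ry12 at 8.01 to 9.28 against 0.20 to 3.68. Averaged per library, the 11 genes were at 7.42 to 8.17 in microglia and at 1.20 (library 2) to 3.43 (library 1) in astrocytes, and Tmem119 and P2ry12 gave signal in all 6 astrocyte libraries. The value that a gene without signal can carry reached 2.74 in astrocyte library 1 and 0.0091 in library 2, which limits this ranking of libraries. With values under 3 set to 3, Fcrls was no longer called (adjusted p = 0.237, range over all alternatives 0.000294 to 0.237).

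Of the 10 astrocyte markers, 9 were higher in astrocytes, all but Slc1a3. The water channel Aqp4 was at 7.55 to 9.43 in astrocytes and at 0.00 to 0.51 in microglia (difference -8.42), and the gap junction gene Gja1 at 7.38 to 8.27 and 0.00 to 1.30 (difference -7.12). The median difference of the 10 genes was -6.29. Averaged per library, they were at 5.58 to 7.72 in astrocytes against 0.89 to 1.27 in microglia.

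The astrocyte libraries also held genes of other cell types. All 7 oligodendrocyte markers were higher in astrocytes, with a median difference of -6.51 and averages of 6.38 to 9.91 against 2.03 to 2.95 in microglia. Over the 6 astrocyte libraries the mean of these 7 genes was 8.77, above the 6.72 of the 10 astrocyte markers. Mbp, a myelin protein gene, was at 12.23 to 15.34 in astrocytes and at 3.33 to 5.74 in microglia. Mag, another myelin gene, differed least (-2.29, adjusted p = 0.0269), and its call was lost without any 1 of 8 libraries (astrocytes 2, 3, 5 and 6, microglia 1, 2, 3 and 6; adjusted p up to 0.0642). Of 6 neuron markers, 5 were higher in astrocytes, with averages of 4.95 to 5.82 against 0.05 to 0.22. The neurofilament gene Nefl was at 7.96 to 8.87 in astrocytes and was listed at 0 in every microglia library.

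T cell markers followed the same direction. Of 9 genes, 8 were higher in astrocytes, all but Cd8a, and the median difference was -3.65. Trac, the T cell receptor alpha constant gene, was at 5.13 to 7.36 in astrocytes and at 0.00 to 2.26 in microglia (difference -5.35, adjusted p = 8.99e-06). The average of the 9 genes was uneven among astrocyte libraries, at 1.52 in library 4, 3.24 in library 1 and up to 6.13 in library 5. It was 0.36 to 1.16 in microglia and 0.62 to 1.32 in naive astrocytes.

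Erythrocyte genes split the astrocyte libraries. Hbb-bs, a beta globin, was at 7.38 to 9.73 in libraries 3 to 6 and at 0.84 and 0.06 in libraries 1 and 2. None of the 5 erythrocyte genes was called by limma, and 3 of them had an unadjusted p under 0.05. Hbb-bs, with a difference of -4.02 (adjusted p = 0.154), was called without library 1 (-5.03, adjusted p = 0.0429) or without library 2 (-5.18, adjusted p = 0.0293), and its adjusted p ran from 0.000894 to 0.283 over all alternatives. Microglia held more neutrophil transcript, with 3 of 7 markers called higher. The 7 genes averaged 2.55 to 8.42 in naive microglia libraries and 2.05 to 7.75 in EAE-vehicle microglia libraries, so the groups overlapped. Camp, a granule peptide gene, was at 0.52 to 9.80 in microglia and 0.12 to 2.16 in astrocytes (difference 5.22, adjusted p = 0.0157; not called with library weights, adjusted p = 0.082), and the list averaged 2.05 in microglia library 4 and 7.75 in library 3. Of 8 monocyte markers, only Ms4a4c was called, towards microglia (difference 6.13, adjusted p = 1.29e-05), and Ccr2, the receptor of inflammatory monocytes, was at 0.51 to 5.06 and 0.49 to 5.39.

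Other cell types were low in both preparations. Averages of the endothelial, mural, dendritic cell, OPC (oligodendrocyte precursor cell) and fibroblast lists stayed between 0.03 and 1.85 in all 12 libraries, and of their genes only the fibroblast gene Col1a2 was called, towards astrocytes (difference -2.24, adjusted p = 0.0214). With values under 3 set to 3, Col1a2 was not called (adjusted p = 0.442). Of 4 ependymal markers, 1 was called higher in astrocytes. Of 6 B cell markers, Cd79b and Ighm were called higher in microglia, Cd79b not with values under 3 set to 3 (adjusted p = 0.0765).

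**Figure D2:**
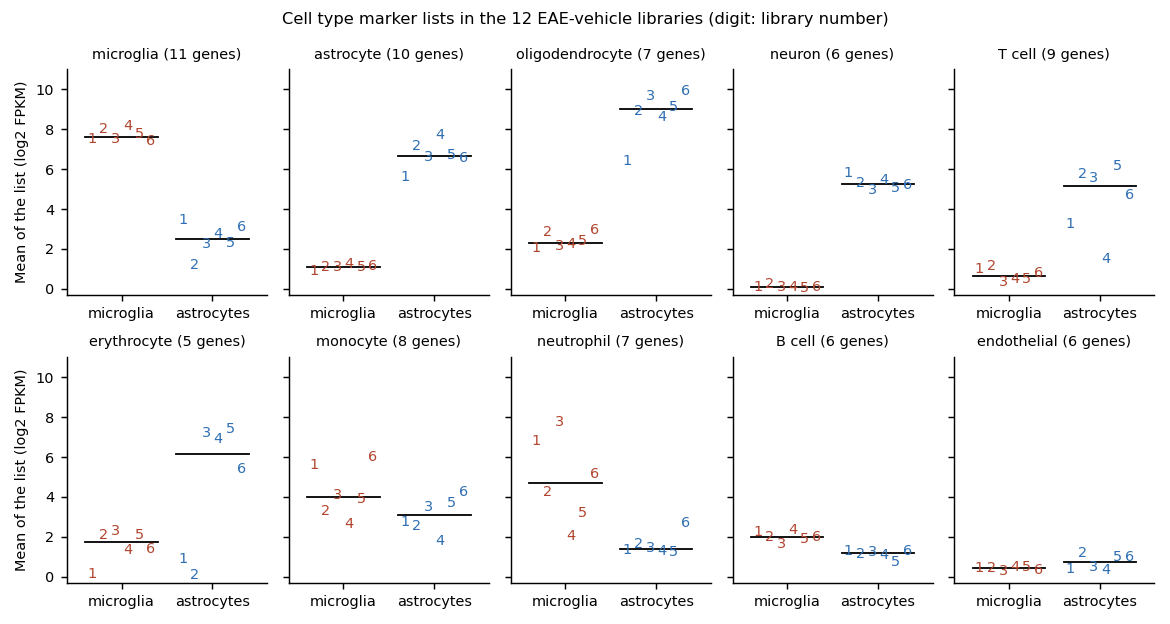
Mean log2 FPKM of the genes of a marker list (vertical axis) in each of the 12 libraries, in 1 panel per cell type. Each digit is a library number, red for microglia and blue for astrocytes, and black lines are medians of 6; T cell genes range from 1.52 to 6.13 among astrocyte libraries, and erythrocyte genes are low in astrocyte libraries 1 and 2.

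The 24 inflammatory lists held 418 genes once the markers of both cell types were set aside. Of these, 193 were higher in microglia, 36 were higher in astrocytes and 189 were not called, of which 126 had a mean of at least 1. Over all genes tested, whatever their mean, 7.07% were called higher in microglia and 4.78% in astrocytes. Among the 11338 genes with a mean of at least 1, the shares were 17.9% and 12.6%. These shares are the background of each list count below. The differences of the microglia markers were used as a scale. Among the 193, 69 differed by less than every microglia marker, 122 lay within the range of the markers and 2, Ccl12 and Fcgr4, lay above it. A gene with a microglia mean under 2.92, the smallest marker difference, falls below the range whatever astrocytes hold. Nlrp3, with a microglia mean of 1.38, is such a gene, so the 69 do not measure presence in astrocytes alone. In astrocytes, 79 of the 193 gave signal in all 6 libraries and 3 gave none. Of the 36 genes higher in astrocytes, 11 differed by less than every astrocyte marker other than Slc1a3, 16 gave signal in all 6 microglia libraries and 3 gave none there. Whether signal of an inflammatory gene in either preparation came from carried-over cells was not tested. That limit covers the 36, since astrocyte libraries held oligodendrocyte, neuron and T cell genes. It covers the 193 as well, since microglia libraries held neutrophil genes.

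**Figure D3:**
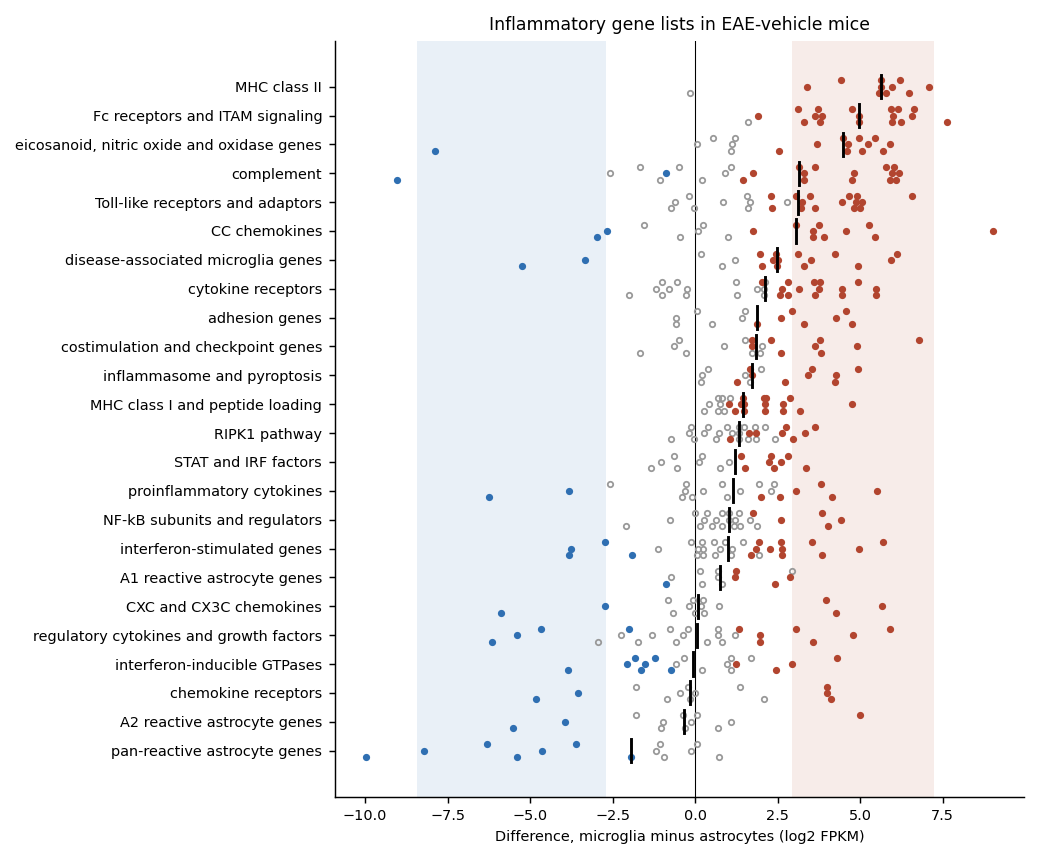
Difference, microglia minus astrocytes, in log2 FPKM (horizontal axis) for the genes of 24 inflammatory lists, ordered by their medians (black bars). Filled red and blue points are genes called higher in microglia and in astrocytes, and open points were not called; the shaded bands span the 11 microglia markers (2.92 to 7.22) and 9 astrocyte markers (-8.42 to -2.71), and MHC class II and Fc receptor genes lie mostly inside the microglia band.

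Chemokines of the CC family belonged mainly to microglia. Of 17 genes, 10 were higher in microglia and 2 in astrocytes, and the median difference was 3.05. Ccl4 was at 5.57 to 7.60 in microglia and at 0.00 to 4.46 in astrocytes (difference 5.26 ± 0.71, adjusted p = 0.00019), and Ccl3 at 4.48 to 7.79 and 0.42 to 5.72 (difference 3.57 ± 0.84, adjusted p = 0.0127); both attract monocytes and T cells. Ccl5, which attracts T cells as well, was at 2.61 to 7.54 in astrocytes and 8.22 to 8.98 in microglia (difference 3.05 ± 0.67, adjusted p = 0.0084). Its lowest astrocyte value was that of library 4, where T cell genes were also lowest. Ccl27a, at 1.37 to 6.16 in astrocytes and 0.07 to 2.16 in microglia, was called towards astrocytes (difference -2.97 ± 0.71, adjusted p = 0.0136), but not with library weights (adjusted p = 0.052, range over all alternatives 0.00138 to 0.052). Ccl19, the other gene called in that direction, was at 0.08 to 5.52 in astrocytes and gave no signal in any microglia library. Its call was lost in 11 of the 21 alternatives (adjusted p up to 0.33), among them the removal of astrocyte library 5 or 6 or of any 1 microglia library.

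Of 14 CXC and CX3C chemokine genes, 3 were higher in microglia and 2 in astrocytes, with a median difference of 0.08. Only 7 of the 14 had a mean of at least 1, so the counts do not share the base of the 17.9% and 12.6% of the 11338 genes. Over all genes tested, whatever their mean, the shares were 7.07% and 4.78%. Cxcl16, a membrane-bound chemokine, was at 6.55 to 8.03 in microglia and 0.00 to 4.62 in astrocytes (difference 5.66 ± 0.69, adjusted p = 8.15e-05). Cxcl13, a B cell attractant, was at 1.70 to 6.42 and 0.04 to 2.47 (difference 4.27 ± 0.80, adjusted p = 0.00258), and was not called with library weights (adjusted p = 0.116). In the opposite direction, Cxcl14 was at 5.89 to 7.85 in astrocytes and 0.00 to 1.67 in microglia (difference -5.88 ± 0.44, adjusted p = 7.67e-07), and Cx3cl1, the ligand of CX3CR1, at 0.32 to 4.31 and 0.12 to 0.39 (difference -2.73 ± 0.60, adjusted p = 0.00842). With values under 3 set to 3, Cx3cl1 was not called (adjusted p = 0.142). Cxcl10, an interferon-induced attractant of T cells, was high in both, at 6.79 to 7.72 in microglia and at 3.32 to 8.24 in astrocytes (difference 0.73 ± 0.65, adjusted p = 0.523). Cxcl1 and Cxcl12 had medians of 0.10 and 0.14 in microglia and 0.19 and 0.54 in astrocytes, and neither was called.

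Cytokine genes split by member. Of 20 proinflammatory cytokine genes, 6 were higher in microglia and 2 in astrocytes. A mean of at least 1 was reached by 14 of them, the base on which shares over all 11338 genes were 17.9% and 12.6%. Il1a was at 5.76 to 7.08 in microglia and 0.00 to 3.16 in astrocytes (difference 5.50 ± 0.53, adjusted p = 9.38e-06), and Il27 at 2.83 to 5.44 and 0.00 to 0.94 (difference 4.14 ± 0.44, adjusted p = 2.22e-05). Tnf and Il1b were not called. Tnf was at 3.51 to 4.86 in 5 microglia libraries and listed at 0 in library 3, against 0.00 to 3.88 in astrocytes (difference 2.38 ± 0.92, adjusted p = 0.136); without microglia library 3 it was called (difference 3.10, adjusted p = 0.0149). Il1b was at 1.94 to 5.49 and 0.00 to 4.07 (difference 2.28 ± 0.82, adjusted p = 0.104), and it was called without astrocyte library 5, which held its highest astrocyte value (difference 2.94, adjusted p = 0.00963). Over all alternatives the adjusted p of Tnf ran from 0.0149 to 0.264 and that of Il1b from 0.00963 to 0.456.

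Il33, an alarmin of the IL-1 family, had the largest difference towards astrocytes among them, at 6.04 to 7.31 in astrocytes and 0.00 to 1.13 in microglia (difference -6.26 ± 0.34, adjusted p = 4.19e-08). Il18, from the same family, was shared, with medians of 6.27 in microglia and 5.98 in astrocytes (difference 0.80 ± 0.67, adjusted p = 0.523). Il6 and Lif were at or near 0 in both preparations, with highest values of 1.02 and 0.97 in microglia and 0.27 and 2.91 in astrocytes. Ifng, the type II interferon of T and natural killer cells, was listed at 0 in all 6 microglia libraries. In astrocyte libraries 1 to 6 it was at 6.61, 2.16, 0.00, 3.83, 5.35 and 4.92, and it was called (adjusted p = 0.0136), though not with values under 3 set to 3 (adjusted p = 0.0847). The T cell list moved in the same direction between the cell types, as given above. In the same 6 astrocyte libraries it averaged 3.24, 5.74, 5.58, 1.52, 6.13 and 4.68, an order of libraries that differed from that of Ifng. The part of T cells in the Ifng signal was not tested.

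Growth factors and regulatory cytokines went both ways as well, with 7 of 24 higher in microglia and 4 in astrocytes. Of the 24, 19 had a mean of at least 1, the base on which shares over all 11338 genes were 17.9% and 12.6%. The progranulin gene Grn (difference 5.91 ± 0.70, adjusted p = 6.02e-05) and Pros1, a ligand of TAM receptors (4.79 ± 0.76, adjusted p = 0.000743), led in microglia. Fgf1 (-6.16 ± 0.39, adjusted p = 1.76e-07) and the metalloproteinase inhibitor Timp1 (-5.40 ± 0.83, adjusted p = 0.000569) led in astrocytes. Timp1 was at 6.28 to 7.54 in 5 astrocyte libraries and at 1.96 in library 2. Csf1, the ligand of the microglial receptor CSF1R, was at 2.86 to 3.89 in microglia and 0.06 to 3.17 in astrocytes (difference 1.97 ± 0.55, adjusted p = 0.032), and this call was lost without any 1 of 7 libraries (astrocytes 2 and 5, microglia 2 to 6; adjusted p up to 0.0753), when all 30 libraries shared 1 fit (adjusted p = 0.0797) and with the replicate number as a block (adjusted p = 0.0699). With values under 3 set to 3, the difference in Csf1 was 0.50, under the fold required. Il34, the other CSF1R ligand, reached 1.20 in microglia and 2.17 in astrocytes, Tgfb1 reached 1.72 and 0.63, and neither was called. Tgfb2 was at 0.00 to 3.96 in astrocytes and 0.00 to 0.52 in microglia and was not called (adjusted p = 0.0743), but it was called without astrocyte library 1 (adjusted p = 0.0142) or 3 (adjusted p = 0.0207), with a range of 0.00521 to 0.15 over all alternatives. Spp1, the osteopontin gene, was high in both, at 7.08 to 8.51 in microglia and 4.01 to 7.16 in astrocytes (difference 1.95 ± 0.52, adjusted p = 0.0257); its call was lost without microglia library 1 (adjusted p = 0.059) or 4 (adjusted p = 0.0603), when all 30 libraries shared 1 fit (adjusted p = 0.0757) and with the replicate number as a block (adjusted p = 0.0513).

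**Figure D4:**
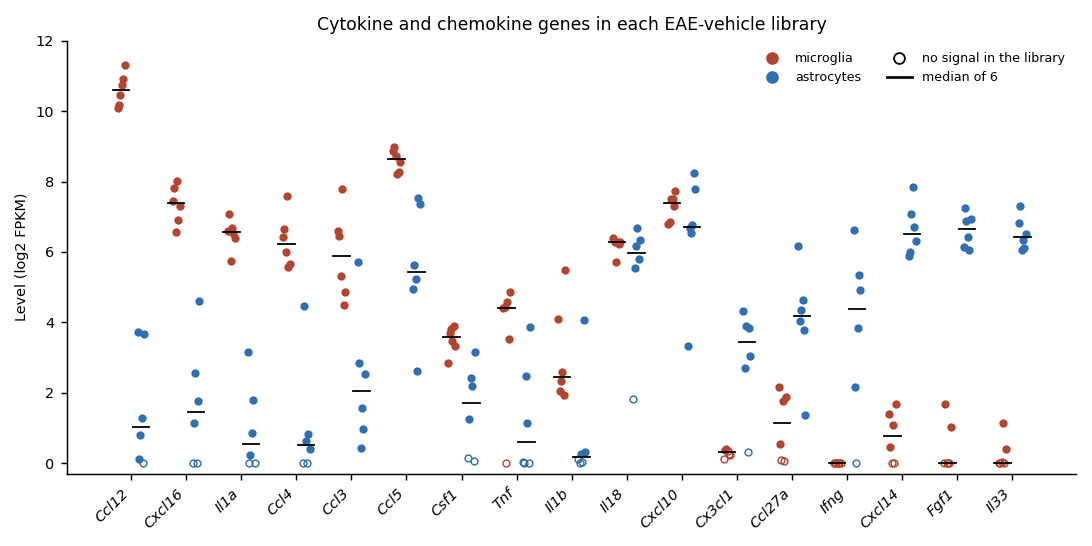
Level in log2 FPKM (vertical axis) of 17 cytokine and chemokine genes in each of the 6 microglia (red) and 6 astrocyte (blue) libraries, with medians as black lines and open circles for libraries without signal. Ccl12, Cxcl16 and Il1a lie higher in every microglia library, Il18 and Cxcl10 overlap, and Il33, Fgf1 and Cxcl14 lie higher in every astrocyte library.

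Receptors were found mostly in microglia. Of 29 cytokine receptor genes, 15 were higher in microglia and 0 in astrocytes, with a median difference of 2.12. Csf2ra (5.48 ± 0.67, adjusted p = 8.27e-05) and Csf1r (5.47 ± 0.63, adjusted p = 4.9e-05) differed most. Of the TNF receptors, Tnfrsf1b was at 4.06 to 4.72 in microglia and 0.00 to 3.83 in astrocytes (difference 3.58 ± 0.61, adjusted p = 0.00127), and Tnfrsf1a was at 4.39 to 5.78 and 0.46 to 5.38 and was not called (difference 2.12 ± 0.82, adjusted p = 0.136). Without astrocyte library 5, Tnfrsf1a was called (difference 2.59, adjusted p = 0.049, range over all alternatives 0.037 to 0.251).

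Of 13 chemokine receptor genes, 3 were higher in microglia (Cx3cr1 and Ccrl2 among them) and 2 in astrocytes. The latter were Cxcr6 and Cxcr3, receptors of T cells. Only 7 of the 13 genes had a mean of at least 1, the base on which shares over all 11338 genes were 17.9% and 12.6%. Cxcr6 was at 5.72 to 7.43 in 5 astrocyte libraries and at 0.49 in library 4, against 0.15 to 2.04 in microglia (difference -4.81 ± 0.97, adjusted p = 0.00452). Cxcr3 was at 3.20 to 5.16 and 0.33 to 1.62 (difference -3.56 ± 0.41, adjusted p = 4.94e-05). Library 4 was also the library with the lowest T cell list, and the part of those cells in both values was not tested.

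Toll-like receptors and their adaptors were higher in microglia for 15 of 24 genes and in astrocytes for 0, with a median difference of 3.13. Ly86 (6.57 ± 0.63, adjusted p = 9.65e-06) and Unc93b1, the chaperone of nucleic acid-sensing receptors (5.04 ± 0.65, adjusted p = 0.00014), led. Tlr2 was at 6.13 to 7.27 in microglia and 0.14 to 4.88 in astrocytes (difference 4.45 ± 0.78, adjusted p = 0.00158), and Tlr3 at 4.00 to 5.03 and 0.00 to 2.48 (difference 3.47 ± 0.45, adjusted p = 0.000133).

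Fc receptors and ITAM signaling genes were nearly all microglial, with 18 of 19 higher in microglia and 0 in astrocytes and a median difference of 4.96. Fcer1g, the common signaling chain, was at 11.48 to 12.10 in microglia and at 3.93 to 6.67 in astrocytes (difference 6.55 ± 0.39, adjusted p = 1.07e-07). Fcgr4 was at 8.43 to 8.78 and 0.00 to 3.59, and Fcgr2b, the inhibitory receptor, differed by 6.61 ± 0.59 (adjusted p = 4.99e-06).

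Complement was split by role. Of 23 genes, 14 were higher in microglia and 2 in astrocytes, with a median difference of 3.14. The C1q genes, which start the classical pathway, were microglial: C1qa was at 11.32 to 12.10 and 4.90 to 7.34 (difference 5.97 ± 0.34, adjusted p = 7.69e-08), and C1qb differed by 6.18 ± 0.34 (adjusted p = 4.63e-08). Clu, an inhibitor of the terminal pathway, was astrocytic, at 8.97 to 10.31 against 0.00 to 1.36 (difference -9.03 ± 0.35, adjusted p = 2.47e-09). Serping1, which inhibits C1, was high in both, with medians of 6.40 in microglia and 7.31 in astrocytes. It was called towards astrocytes (difference -0.87 ± 0.24, adjusted p = 0.0302), and the call was lost without any 1 of 6 libraries (astrocytes 3 and 6, microglia 1 to 4; adjusted p up to 0.0706), when all 30 libraries shared 1 fit (adjusted p = 0.452), with library weights (adjusted p = 0.262) and with the replicate number as a block (adjusted p = 0.0591). C3 did not differ by the test, with 4.11 to 6.02 and 3.43 to 5.19 (difference 0.90 ± 0.41, adjusted p = 0.228). C4b was called towards microglia (difference 1.74 ± 0.45, adjusted p = 0.022), but not without microglia library 2 (adjusted p = 0.0546) or 3 (adjusted p = 0.0513).

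Of 11 MHC class II genes, 10 were higher in microglia and 0 in astrocytes, and the median difference was 5.63. H2-Aa was at 10.85 to 11.93 in microglia and at 3.41 to 7.67 in astrocytes (difference 5.63 ± 0.53, adjusted p = 7.8e-06). H2-Oa, which modulates peptide loading, differed by 6.49 ± 0.65 (adjusted p = 1.51e-05). MHC class I and peptide loading genes leaned the same way at smaller size, with 15 of 23 higher in microglia, 0 in astrocytes and a median difference of 1.45. B2m, the class I light chain, was at 13.32 to 14.20 and 11.32 to 11.81 (difference 2.13 ± 0.14, adjusted p = 2.39e-07), with high levels in both preparations. H2-M3 (4.75 ± 0.75, adjusted p = 0.000742) and the disulfide isomerase gene Pdia3 (3.17 ± 0.27, adjusted p = 2.64e-06) differed most. Genes of the H2 family share sequence, and the counting of shared reads is not given in the sources used here, so single members are uncertain.

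Interferon genes were called in both directions. Of 30 interferon-stimulated genes, 11 were higher in microglia, 4 were higher in astrocytes and 15 were not called, with a median difference of 0.99. The share towards astrocytes is near the 12.6% of all 11338 genes, and the share towards microglia is above their 17.9%. Dhx58, an RNA sensor regulator (5.70 ± 0.49, adjusted p = 3.4e-06), and Ifi204 (4.97 ± 0.72, adjusted p = 0.000365) were microglial. Ifit3b, at 5.81 to 8.67 in astrocytes and 2.34 to 4.41 in microglia (difference -3.81 ± 0.49, adjusted p = 0.000124), and Ifi27 (-3.77 ± 0.36, adjusted p = 8.4e-06) were astrocytic. Ifit3b has a close paralog, Ifit3, which moved in the same direction (difference -1.92).

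The interferon-inducible GTPases, which act against intracellular pathogens, were split. Of 18 genes, 4 were higher in microglia and 7 in astrocytes, with a median difference of -0.07. The share towards microglia is near the 17.9% of all 11338 genes. Gbp2b was at 2.76 to 5.20 in microglia and 0.01 to 0.21 in astrocytes (difference 4.30 ± 0.47, adjusted p = 3.1e-05), and Gbp8 differed by 2.92 ± 0.64 (adjusted p = 0.00774). Gbp10 was at 5.54 to 7.79 in astrocytes and 1.06 to 4.05 in microglia (difference -3.85 ± 0.52, adjusted p = 0.000208), and Tgtp1 differed by -2.06 ± 0.49 (adjusted p = 0.013), a call lost when all 30 libraries shared 1 fit (adjusted p = 0.0687, range over all alternatives 0.000354 to 0.0687). These genes have close relatives, Tgtp1 with Tgtp2 (difference -0.34, not called) among them.

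Among transcription factors of the same response, calls were towards microglia. Of 16 STAT and IRF genes, 8 were higher in microglia and 0 in astrocytes. Irf5 differed by 3.35 ± 0.62 (adjusted p = 0.00246) and Irf8, a macrophage factor, by 2.82 ± 0.33 (adjusted p = 5.39e-05). Stat3 had medians of 5.28 in microglia and 5.92 in astrocytes (adjusted p = 0.176). Of 23 NF-kB genes, 5 were higher in microglia and 0 in astrocytes, a share towards microglia near the 17.9% of all 11338 genes. They included Traf5 (4.42 ± 0.36, adjusted p = 2.13e-06) and the kinase gene Chuk (4.02 ± 0.61, adjusted p = 0.000509). Nfkbia, the feedback inhibitor, was at 6.68 to 7.66 and 6.55 to 7.57 (adjusted p = 0.732), and the subunit gene Rela had medians of 3.89 and 3.40 (adjusted p = 0.514).

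Of 27 RIPK1 pathway genes, 8 were higher in microglia and 0 in astrocytes, with a median difference of 1.33. All 27 had a mean of at least 1, the base on which shares over all 11338 genes were 17.9% and 12.6%. Ripk1 (chr13:34002363-34037147, GRCm38) was at 3.44 to 4.42 (median 3.99) in microglia. In astrocyte libraries 1 to 6 it was at 0.00, 1.95, 0.51, 0.00, 0.00 and 1.53, with signal in 3 of them (difference 3.32 ± 0.44, adjusted p = 0.00015). The apoptotic caspase Casp8, which cleaves RIPK1, was at 5.89 to 6.78 and 0.23 to 4.42 (difference 3.63 ± 0.72, adjusted p = 0.00392), and the nucleic acid sensor Zbp1 at 7.32 to 8.05 and 4.92 to 6.80 (difference 1.85 ± 0.31, adjusted p = 0.00105). Zbp1 was not called when all 30 libraries shared 1 fit (adjusted p = 0.069, range over all alternatives 0.000139 to 0.069).

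The necroptosis genes downstream were less clear. Ripk3 was at 1.10 to 4.26 in microglia. It was listed at 0 in 5 astrocyte libraries and at 3.99 in library 3 (difference 2.61 ± 0.79, adjusted p = 0.0479), and its call was lost in 14 of the 21 alternatives (adjusted p up to 0.377), including the removal of any 1 library except microglia 3 and astrocyte 3. Mlkl, the executor of necroptosis, was at 3.00 to 4.79 and 0.09 to 4.52 and was not called (difference 1.48 ± 0.78, adjusted p = 0.319).

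Inflammasome genes were higher in microglia for 9 of 15 genes and in astrocytes for 0. Pycard, the adaptor, was at 9.02 to 9.70 and 1.75 to 5.78 (difference 4.93 ± 0.61, adjusted p = 9.84e-05). Nlrp3 was low, at 0.55 to 2.24 in microglia and 0.00 to 0.59 in astrocytes (difference 1.28 ± 0.35, adjusted p = 0.0279), and its call was lost without any 1 of 4 libraries (astrocytes 3, 4 and 6, microglia 6; adjusted p up to 0.0718), with the replicate number as a block (adjusted p = 0.127), with library weights (adjusted p = 0.0703) and with centred libraries (adjusted p = 0.0548). Of 17 eicosanoid, nitric oxide and oxidase genes, 11 were higher in microglia and 1 in astrocytes, with a median difference of 4.47. The 5-lipoxygenase partner Alox5ap (5.91 ± 0.56, adjusted p = 7.71e-06), the NADPH oxidase genes Ncf1 (5.67 ± 0.48, adjusted p = 2.72e-06) and Cybb (4.61 ± 0.49, adjusted p = 2.31e-05), and the cyclooxygenase Ptgs1 (5.22 ± 0.61, adjusted p = 5.61e-05) were microglial. The 1 gene called higher in astrocytes was Ptgds, a prostaglandin D synthase, at 6.95 to 10.03 against 0.00 to 2.43 (difference -7.89 ± 0.56, adjusted p = 4.7e-07). The astrocyte libraries also held oligodendrocyte genes, as given above, and the part of those cells in the Ptgds signal was not tested.

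Costimulation and checkpoint genes were higher in microglia for 9 of 18 genes, led by Cd86 (6.77 ± 0.70, adjusted p = 1.94e-05) and Havcr2 (4.91 ± 0.60, adjusted p = 8.89e-05), and adhesion genes for 7 of 13. Neither list had a gene higher in astrocytes. Icam1 was at 5.75 to 6.89 and 0.03 to 3.87 (difference 4.58 ± 0.66, adjusted p = 0.000354). Vcam1, another integrin ligand, was at 4.77 to 5.97 and 0.15 to 5.19 (difference 2.58 ± 0.78, adjusted p = 0.0483), and its call was lost in 12 of the 21 alternatives (adjusted p up to 0.102), including the removal of any 1 library except astrocytes 3 and 5.

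Lists named for a reactive state of 1 cell type did not follow that name throughout. Of 18 disease-associated microglia genes, 13 were higher in microglia, led by Cd68 (6.12 ± 0.74, adjusted p = 7.29e-05) and Clec7a (5.93 ± 0.44, adjusted p = 8.13e-07). The fatty acid carrier Fabp5 (-5.24 ± 0.76, adjusted p = 0.000341) and Ank (-3.34 ± 0.68, adjusted p = 0.0051) were higher in astrocytes, Ank not with values under 3 set to 3 (adjusted p = 0.0702). Apoe was at 13.32 to 14.48 in microglia and 11.48 to 12.10 in astrocytes (difference 2.49 ± 0.21, adjusted p = 2.36e-06). Of 13 pan-reactive astrocyte genes, 7 were higher in astrocytes and 0 in microglia. The protease inhibitor Serpina3n was at 7.89 to 9.39 against 0.00 to 1.47 (difference -8.21 ± 0.36, adjusted p = 7.58e-09), the lipocalin Lcn2 at 7.60 to 9.43 against 2.01 to 6.44 (difference -4.64 ± 0.75, adjusted p = 0.000854), and Vim differed by -1.93 ± 0.46 (adjusted p = 0.0127), which was not called with library weights (adjusted p = 0.0748, range over all alternatives 0.00119 to 0.0748). Neutrophils also express Lcn2, and 3 of 7 neutrophil markers were higher in microglia, as given above. Of 12 A1 reactive astrocyte genes, 4 were higher in microglia, among them Ggta1 (2.87 ± 0.42, adjusted p = 0.000378; with values under 3 set to 3, adjusted p = 0.27) and Fkbp5 (2.41 ± 0.60, adjusted p = 0.017), and 1 in astrocytes (Serping1). Of 12 A2 genes, Cd14 was higher in microglia (4.98 ± 0.83, adjusted p = 0.00115), and S100a10 (-5.52 ± 0.70, adjusted p = 0.000118) and Tgm1 (-3.93 ± 0.92, adjusted p = 0.0116) were higher in astrocytes. A mean of at least 1 was reached by 9 A1 and 4 A2 genes. On that base, shares over all 11338 genes were 17.9% towards microglia and 12.6% towards astrocytes.

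Promoters were searched for motifs of factors known from these cells, as a feature that the choice of genes did not use. RefSeq promoters of GRCm38, from 250 bases before to 50 after a start, were matched to 8679 of the 11332 symbols of these genes, and each motif was counted on both strands, whether or not it overlapped another motif. GAGGAAGT, the site of the macrophage factor PU.1, was in 5.76% of the promoters of genes higher in microglia, in 1.95% of those higher in astrocytes and in 3.2% of all promoters. The interferon response element, searched as GAAA and GAAA with 2 bases between, was in 5.04%, 2.96% and 3.44%. The other shares in the same order were 2.06%, 0.941% and 1.47% for NF-kB (GGGA and TTCC with 2 bases between), 5.51%, 5.38% and 7.81% for TGANTCA (AP-1), 6.95%, 7.73% and 8.3% for TTCNNNGAA (GAS), 5.4%, 5.58% and 4.1% for CTGATTGG (Y box), 0.721%, 1.08% and 0.807% for NFI (TGGC and GCCA with 5 bases between) and 15%, 16.3% and 18.7% for ACAAAG (SOX). Median GC content was 59.3% for genes higher in microglia, 59.7% for those higher in astrocytes and 52.7% for all promoters. By list, the interferon element was in 10 of 12 promoters of interferon-inducible GTPases and in 12 of 20 of interferon-stimulated genes, and the Y box in 4 of 9 of MHC class II genes. The SOX letters were in 5 of those 9. The PU.1 site was in 3 of 17 promoters of Fc receptor and ITAM genes. It was in 0 of 9 of MHC class II genes, 0 of 9 of microglia markers and 0 of 8 of astrocyte markers. These are matches of letters, counted without a test.

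Before the start of Cxcr3, a gene higher in astrocytes, a PU.1 site begins at base -16. The site is shown in capitals for 4 genes higher in microglia that were described above. It lies before their start, on either strand of the sequence read in the direction of the gene:
Fcgr4 (chr1:171018878-171018919, plus strand): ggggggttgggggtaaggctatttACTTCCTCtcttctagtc
Ctsc (chr7:88277910-88277965, plus strand): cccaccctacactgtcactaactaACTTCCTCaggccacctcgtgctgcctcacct
Ptgs1 (chr2:36230378-36230425, plus strand): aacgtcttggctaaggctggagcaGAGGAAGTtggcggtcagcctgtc
Pycard (chr7:127993880-127993935, minus strand): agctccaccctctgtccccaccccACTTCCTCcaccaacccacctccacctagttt

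The interferon response element, in capitals, occurs in genes of both directions, here 1 higher in microglia (Gbp2b), 2 higher in astrocytes (Ifit3b and Igtp, difference -1.64) and 1 not called (Isg15, difference -0.11, where 3 matches overlap). Igtp, Isg15 and H2-Eb1 below were chosen after their values were seen.
Gbp2b (chr3:142594686-142594743, plus strand): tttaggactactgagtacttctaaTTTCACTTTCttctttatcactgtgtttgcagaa
Ifit3b (chr19:34607745-34607836, plus strand): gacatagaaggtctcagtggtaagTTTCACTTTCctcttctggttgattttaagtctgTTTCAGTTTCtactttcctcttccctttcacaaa
Igtp (chr11:58199498-58199555, plus strand): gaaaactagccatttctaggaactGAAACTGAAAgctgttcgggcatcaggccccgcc
Isg15 (chr4:156200851-156200920, minus strand): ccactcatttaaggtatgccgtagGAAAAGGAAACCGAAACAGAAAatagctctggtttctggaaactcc

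The Y box, part of the element through which CIITA drives MHC class II genes, is shown in capitals for a pair of class II genes higher in microglia (H2-Eb1, difference 5.57).
H2-Aa (chr17:34287843-34287898, minus strand): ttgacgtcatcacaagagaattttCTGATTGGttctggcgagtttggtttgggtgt
H2-Eb1 (chr17:34305781-34305836, plus strand): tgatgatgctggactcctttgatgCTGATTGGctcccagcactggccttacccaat

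Whether the difference between the cell types was itself changed by disease was asked with the naive mice, in 1 fit of all 30 libraries. The difference moved towards microglia in EAE-vehicle for 187 of 30952 genes (0.604%) and towards astrocytes for 117 (0.378%), and 150 and 92 of these were among the 11338. An unadjusted p under 0.05 was reached by 2804 genes, where about 1548 would be expected by chance. The count towards microglia was 122 without EAE-vehicle microglia library 5, 122 without library 6 and 120 without naive microglia library 3.

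Identity markers were closer together in EAE. The median difference of the 11 microglia markers was 8.91 in naive mice and 5.47 in EAE-vehicle mice, and 6 of them moved towards astrocytes by the test. P2ry12 differed by 11.30 in naive mice and 6.07 in EAE-vehicle mice (change -5.23 ± 0.93, adjusted p = 0.00277), and Fcrls by 9.30 and 2.92 (change -6.38 ± 0.87, adjusted p = 0.000128). The median of the astrocyte markers was -8.59 in naive mice and -6.29 in EAE-vehicle mice, and 5 of 10 moved towards microglia, among them Gja1 (change 2.85 ± 0.59, adjusted p = 0.0112) and Slc1a3 (change 1.85 ± 0.44, adjusted p = 0.0377). The microglia markers averaged 9.93 to 10.33 in naive and 7.42 to 8.17 in EAE-vehicle microglia, and 0.75 to 2.06 in naive and 1.20 to 3.43 in EAE-vehicle astrocytes. Low averages are limited by the value that a gene without signal can carry. It reached 2.74 in EAE-vehicle astrocyte library 1, 1.69 in naive astrocyte library 2 and 1.74 in naive microglia library 4. The astrocyte markers averaged 8.03 to 9.45 in naive and 5.58 to 7.72 in EAE-vehicle astrocytes, and 0.76 to 1.17 in naive and 0.89 to 1.27 in EAE-vehicle microglia, where the groups overlapped.

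Towards microglia, the largest changes were in Pla2g7, Vcam1 and Serpina3f. Pla2g7, a secreted phospholipase, averaged 10.47 in naive astrocytes and 2.09 in naive microglia, but 7.92 and 7.77 in EAE-vehicle (change 8.23 ± 0.74, adjusted p = 1.81e-07). Vcam1 averaged 6.71 in naive astrocytes and 1.38 in naive microglia, and 2.97 and 5.55 in EAE-vehicle (change 7.92 ± 1.35, adjusted p = 0.00183). Serpina3f, a serine protease inhibitor, averaged 0.23 in naive microglia and 0.11 in naive astrocytes, and 7.29 and 0.81 in EAE-vehicle (change 6.37 ± 0.78, adjusted p = 3.63e-05). Apoe reversed as well, from -2.75 in naive mice to 2.49 (change 5.24 ± 0.60, adjusted p = 2.37e-05). H2-Aa (change 4.93, adjusted p = 0.0127), Gbp2b (4.36, adjusted p = 0.00294), Cxcl13 (4.28, adjusted p = 0.0262), Fcgr4 (3.62, adjusted p = 0.0305), Il27 (3.26, adjusted p = 0.00446) and Cybb (2.97, adjusted p = 0.0395) moved in the same direction.

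Towards astrocytes, the largest changes were in Gimap6, Egr1 and Selplg. Gimap6, a GTPase gene of lymphocytes and other immune cells, averaged 5.22 in naive microglia and 1.18 in naive astrocytes, and 1.75 and 5.74 in EAE-vehicle (change -8.03 ± 1.39, adjusted p = 0.0022). Egr1, an immediate early gene, averaged 7.09 in naive microglia and 0.28 in naive astrocytes, and 2.62 and 3.63 in EAE-vehicle (change -7.81 ± 1.25, adjusted p = 0.00103). Selplg, the ligand of P-selectin, averaged 12.41 and 1.76 in naive mice and 9.38 and 6.45 in EAE-vehicle (change -7.71 ± 1.09, adjusted p = 0.0002). The T cell list averaged 0.62 to 1.32 in naive and 1.52 to 6.13 in EAE-vehicle astrocytes. In the same order, the monocyte list averaged 0.07 to 0.81 and 1.77 to 4.25, and the oligodendrocyte list 6.19 to 7.39 and 6.38 to 9.91. Erythrocyte genes went the other way, at 3.88 to 8.67 and 0.08 to 7.40. The part of these cells in the changes towards astrocytes was not tested. Apod (-4.53, adjusted p = 0.00689), Serpina3n (-3.04, adjusted p = 0.0106), Timp1 (-4.44, adjusted p = 0.0328), Ifi27 (-4.41, adjusted p = 0.000734) and Gbp10 (-3.96, adjusted p = 0.00893) also moved towards astrocytes, as did C1qb (-4.98, adjusted p = 0.00183). Irf8 moved in the same direction (-4.16, adjusted p = 0.00647), with averages of 7.83 in naive microglia and 0.85 in naive astrocytes, and of 7.07 and 4.25 in EAE-vehicle.

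**Figure D5:**
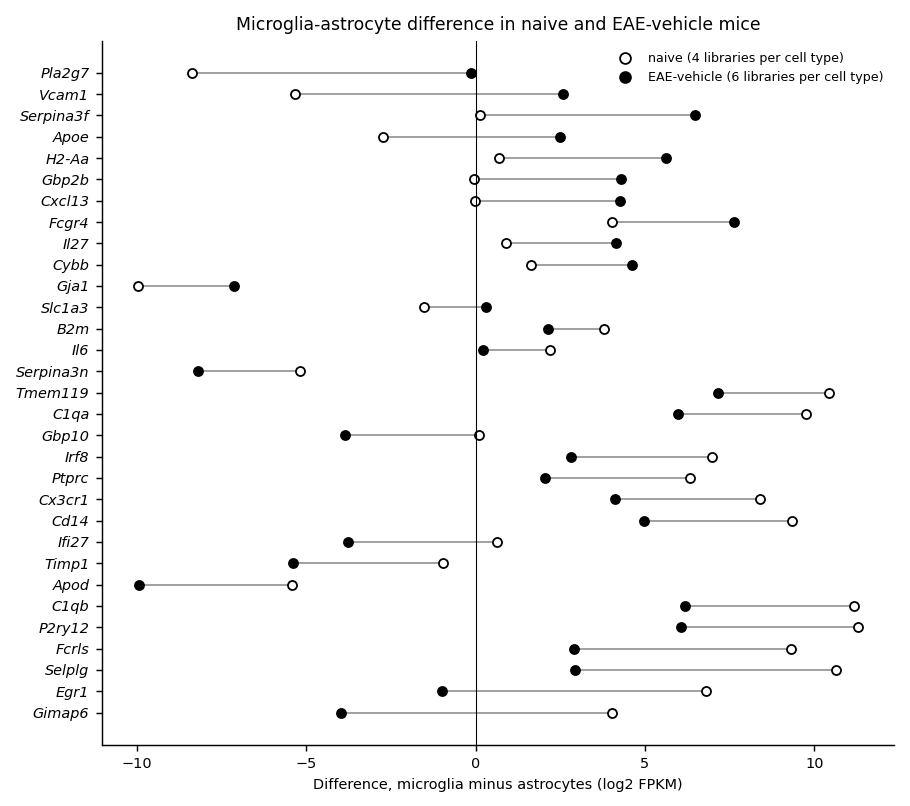
Difference, microglia minus astrocytes, in log2 FPKM (horizontal axis) in naive (open circles, 4 libraries per cell type) and EAE-vehicle mice (filled circles, 6 per cell type) for the 31 named genes whose difference changed by the test. Pla2g7, Vcam1 and Apoe cross or reach the line at 0 from the left, Gimap6 and Egr1 cross it from the right, and P2ry12 and Fcrls move towards it.

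Against EAE-RIPK1inh, the microglia-astrocyte difference changed for 0 of 30952 genes in either direction (0% each way) by limma after adjustment. The smallest adjusted p was 0.693, and 1066 genes had an unadjusted p under 0.05, where about 1548 would be expected by chance. With library weights, 0 genes moved towards microglia and 4 towards astrocytes. Without EAE-vehicle astrocyte library 1 or EAE-RIPK1inh microglia library 1, 1 gene moved towards astrocytes. The difference in Ripk1, the target of the inhibitor, was larger in EAE-vehicle by 1.19 ± 0.69 (adjusted p = 0.948).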

How the data were processed

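RNA of sorted spinal cord microglia and astrocytes was sequenced in 30 libraries. The authors deposited log2 FPKM values for 30952 genes, quantile-normalized over all libraries, from 0 to 15.34. For its cultured cells the study describes OmicSoft Array Studio; aligner and counting for these libraries are not given in the sources used here. Gene positions are those of GRCm38. Depth cannot be recovered from quantile-normalized values.

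Libraries were grouped by the labels. The cell types were compared in the 12 EAE-vehicle libraries with limma 3.58.1 (R 4.3.3; lmFit and eBayes with a variance trend), with Benjamini-Hochberg adjustment over 30139 genes with variation, and changes of the difference from naive or EAE-RIPK1inh mice as interactions in 1 fit of 30 libraries over 30952 genes. A gene was called at a fold over 1.5 and an adjusted p under 0.05. The code was tested on simulated data. No fold is given against a group without signal. Members, gene lists and tests were chosen with earlier results of these data known. Named genes were the sort antigens and a set of inflammatory genes, the 5 largest differences in each direction, the largest differences of each inflammatory list, the lowest and highest of each marker list and the largest changes from naive. The effect of a filter, a floor, an offset, centring, weights, a replicate block and left-out libraries is given at the end. Some genes that this rule covers are not reported here; counts over lists include them.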

Additional observations from a re-analysis of the deposited data

Results flagged for a closer look

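In 61 of 306 groups of 6 values (a gene in 1 cell type), 1 library stood apart from the other 5 by Dixon's criterion. For normally distributed values, chance flags about 1 group in 20. That rate does not hold for groups at or near 0. Where all other values are 0, as for Ripk3 in astrocytes, any value above 0 is flagged. Values are log2 FPKM, and the counts include genes not reported here. Astrocyte library 1 held the highest value of Lif (2.91), Ccrl2 (2.17), Il27 (0.94) and Cd86 (4.81) and the lowest value of Il18 (1.83), Cxcl10 (3.32), Mag (3.09) and S100a10 (6.76). Astrocyte library 2 held the highest value of Ccl4 (4.46), Cd79b (0.032), Abcc9 (3.22), Rgs5 (0.015) and Col3a1 (0.80) and the lowest value of Timp1 (1.96), Csf1r (0.37) and Tgm1 (0.25). Astrocyte library 3 held the highest value of Ripk3 (3.99), Tnfrsf1b (3.83), H2-Oa (4.03), Traf5 (0.48) and Naip2 (0.35). Astrocyte library 4 held the highest value of Apoe (12.10) and Cxcl13 (2.47) and the lowest value of Ptprc (2.42), B2m (11.32), Ccr2 (0.49), Cxcr6 (0.49), Gbp8 (0.92) and Gbp10 (5.54). Astrocyte library 5 held the highest value of Il1b (4.07), Nlrp3 (0.59) and Fcgr4 (3.59). Astrocyte library 6 held the highest value of Ms4a4c (3.96), Ccr7 (4.96), Zbtb46 (0.45), Tmem212 (1.87), Dhx58 (2.51) and Serpina3f (3.35). Microglia library 1 held the highest value of Il34 (1.20) and Zbtb46 (0.93). Microglia library 2 held the highest value of Cd8a (0.71), Ccr7 (0.086), Neu4 (0.18), Syt1 (0.75) and Cxcr6 (2.04). Microglia library 3 held the highest value of Lif (0.97) and Timp1 (2.33) and the lowest value of Tnf (0.00) and Il18 (5.72). Microglia library 4 held the highest value of Il33 (1.13), Cxcl12 (0.97), Serpina3n (1.47) and Ifi204 (7.71) and the lowest value of Gbp10 (1.06) and Tgtp1 (4.68). Microglia library 5 held the highest value of Zbp1 (8.05) and the lowest value of Tnfrsf1b (4.06). Microglia library 6 held the highest value of Mt3 (2.22).

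For 31 named genes the difference, microglia minus astrocytes, changed between naive and EAE-vehicle mice by limma's interaction test. The change was towards microglia for Pla2g7 (8.23), Vcam1 (7.92), Serpina3f (6.37), Apoe (5.24), H2-Aa (4.93), Gbp2b (4.36), Cxcl13 (4.28), Fcgr4 (3.62), Il27 (3.26), Cybb (2.97), Gja1 (2.85), Slc1a3 (1.85). It was towards astrocytes for Gimap6 (-8.03), Egr1 (-7.81), Selplg (-7.71), Fcrls (-6.38), P2ry12 (-5.23), C1qb (-4.98), Apod (-4.53), Timp1 (-4.44), Ifi27 (-4.41), Cd14 (-4.35), Cx3cr1 (-4.29), Ptprc (-4.28), Irf8 (-4.16), Gbp10 (-3.96), C1qa (-3.80), Tmem119 (-3.27), Serpina3n (-3.04), Il6 (-1.97), B2m (-1.65).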

How the results depend on the processing

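Of the genes called between the cell types, 66.9% (values under 3 set to 3) to 97.5% (no variance trend) kept their call and direction over the alternatives that changed the fit, and 82% to 93.9% did so with 1 library left out. With 1 library left out, 1725 to 2359 genes were called higher in microglia and 1207 to 1850 in astrocytes. The change from naive was then called for 120 to 235 genes towards microglia and 90 to 157 towards astrocytes, and the change from EAE-RIPK1inh for 0 to 1 gene towards astrocytes. At the cutoff of the study's methods, an unadjusted p, 3768 and 2568 genes were called between the cell types, 1537 and 1149 against naive and 515 and 461 against EAE-RIPK1inh, towards microglia and astrocytes in turn. Library weights gave 2210 genes higher in astrocytes, 366 and 287 against naive and 4 towards astrocytes against EAE-RIPK1inh. Setting values under 3 to 3 gave 354 and 298 against naive, and testing only genes with a mean of at least 1 gave 181 towards astrocytes. The cause was not tested.

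Replicate numbers are shared between the cell types, but same-numbered libraries did not deviate together (correlations of -0.021 to 0.121, and 2 of 6 microglia libraries were closest to their own number). With the replicate number as a block, 1616 and 1150 genes were called between the cell types, 63 and 61 against naive and 0 against EAE-RIPK1inh.

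List medians also moved. With values under 3 set to 3, which compresses low genes, they were -3.93 for astrocyte, 3.95 for microglia, -3.55 for oligodendrocyte, -0.0065 for OPC, -0.047 for ependymal and -1.80 for neuron markers, 1.07 for CC chemokines, 0.093 for proinflammatory cytokines, 1.35 for cytokine receptors, 0.90 for complement, 0.43 for interferon-stimulated genes, 0.088 for NF-kB, 0.44 for RIPK1 pathway, 1.01 for Toll-like receptor, 0.59 for inflammasome, 3.85 for Fc receptor, 1.99 for disease-associated microglia, 0.65 for costimulation, 1.19 for adhesion and 2.88 for eicosanoid genes. Over genes with a mean of at least 1 only, B cell markers (3.04) and chemokine receptors (2.08) reversed to microglia, and medians were -2.24 for fibroblast, -1.84 for ependymal and -5.25 for neuron markers, 3.57 for CC and 0.73 for CXC chemokines, 2.14 for proinflammatory and 0.68 for regulatory cytokines, 2.72 for cytokine receptors, 2.72 for inflammasome genes, -4.13 for pan-reactive and -1.63 for A2 genes, and 2.58 for adhesion genes; fewer genes enter these medians. An offset of 1 gave -5.46 for astrocyte and -3.73 for neuron markers, 0.83 for proinflammatory cytokines, 2.50 for complement, 2.37 for Toll-like receptors and 1.47 for costimulation genes. Library weights gave 4.63 for microglia markers and 1.55 for proinflammatory cytokines. The CC chemokine median was 2.46 to 3.41 with 1 library left out. Of 153 named genes, 124 kept their call in every alternative run and 0 reversed. Depth is unknown, and low genes are limited by the level that a gene without signal can carry.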
